A study of Mus musculus with 24 samples.

Results

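The effect of the Z165KO genotype (KO below) on gene expression was compared between alveolar macrophages of the mouse lung and splenic macrophages. Libraries were chosen by their labelled cell type and genotype, which gave 12 of the 24 bulk RNA libraries of the series in 4 of its 8 groups: WT alveolar, KO alveolar, WT splenic and KO splenic macrophages, with 3 libraries each. Every library was made from 100000 macrophages sorted after tissue digestion. The labels describe neither the Z165KO allele nor the sorting gate, the strain, the age or the sex of the mice. They also do not say that replicates came from separate animals, so p-values reflect variation among these libraries only, part of which may be technical. In the published literature, not in the labels, Z165 is the name of an enhancer upstream of the gene Zeb2, and mice that lack it have been described as short of B cells and monocytes.

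Zeb2 encodes a zinc finger factor that binds E-box motifs and mostly represses transcription. It is needed for several blood lineages, and in tissue-resident macrophages it is known to help keep the programme that a tissue imposes on its cells. Alveolar macrophages take up and break down surfactant lipid, whereas the macrophages of the splenic red pulp clear aged red cells and recycle their iron. The question was which genes answered the genotype alike in both tissues, and which answered in one tissue or in opposite directions.

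Total counts per library lay between 51613880 and 63234480. The first principal component of the 12 libraries held 79.0% of the variance and separated the tissues. The second held 4.9% and separated KO from WT libraries in both tissues, in the same direction and with a wider gap in spleen. The third held 3.8% and separated KO from WT libraries in both tissues in opposite directions, with a wider gap in lung. Genes with at least 10 counts numbered 15958 to 17171 in the KO alveolar libraries and 17436 to 18514 in the WT alveolar ones, against 17547 to 18646 and 17513 to 17880 in the KO and WT splenic ones. The labelled tissues matched their markers: 28 alveolar identity genes summed to 37500 to 46800 CPM (counts relative to the library total) in alveolar libraries and to 4100 to 4710 CPM in splenic ones. The 20 red pulp identity genes summed to 46800 to 52500 CPM in splenic libraries and to 7270 to 9190 CPM in alveolar ones. Spic, the factor that defines red pulp macrophages, stood at 1340 to 1720 CPM in splenic libraries and at 0 to 1.42 CPM in alveolar ones.

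Of 20225 genes tested, 121 (0.598%) had a KO effect that differed between the tissues at an adjusted p under 0.05. The difference is the alveolar log2 fold change, KO over WT, minus the splenic one, and it was higher in alveolar macrophages for 56 genes (0.277%) and lower for 65 (0.321%). At an unadjusted p under 0.05, 2711 genes (13.4%) differed. The KO effect itself was called for 199 genes in alveolar macrophages (0.984%; 57 higher, 0.282%, and 142 lower, 0.702%) and for 147 genes in splenic macrophages (0.727%; 46 higher, 0.227%, and 101 lower, 0.499%). The effect was called in both tissues for 21 genes (0.104%), each with the same direction in both. The mean of both tissues' effects was called for 218 genes (1.08%), 54 higher (0.267%) and 164 lower (0.811%). The count of differing genes moved when 1 library was left out: it was 54 without WT alveolar replicate 1, 51 without WT alveolar replicate 2, 71 and 66 without WT splenic replicates 1 and 2, and 64 and 59 without KO splenic replicates 2 and 3, and lay between 84 and 142 without each of the others. Of the 42 genes chosen by the naming rule that had a called difference, 7 kept the call under every other test, scaling, filter, block or set of libraries tried (Adgre4, Bcar3, Cav1, Cd37, Gpr141, Grap and Scd1). The call was lost for 25 with voom quality weights per tissue, 12 with a block by replicate number, 33 with a block by number within genotype, 12 with all 24 libraries in the fit, 1 with RLE scaling and 0 with DESeq2 or without the filter. Where calls are said below to be kept or lost without a library, the adjusted p covers tests without 1 library only. The blocks or voom gave larger values for most of these genes.

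The 121 genes fell into 3 classes. In 71 genes, the alveolar class, the effect was called in alveolar macrophages and not in splenic ones (18 higher and 53 lower in KO). In 34 genes, the splenic class, the reverse held (4 higher and 30 lower in KO). The other 16 had a called difference with neither effect called, and in all 16 the fitted effects pointed in opposite directions. Class names follow the calls and do not state that the other tissue lacked an effect: the 95% interval of the effect in the other tissue stayed within 1 log2 unit of 0 for 37 of the 71 and 20 of the 34 genes. In none of the 105 genes did that interval hold the effect fitted in the gene's own tissue. The called difference selects for this pattern, so it is given as a description.

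**Figure D1:**
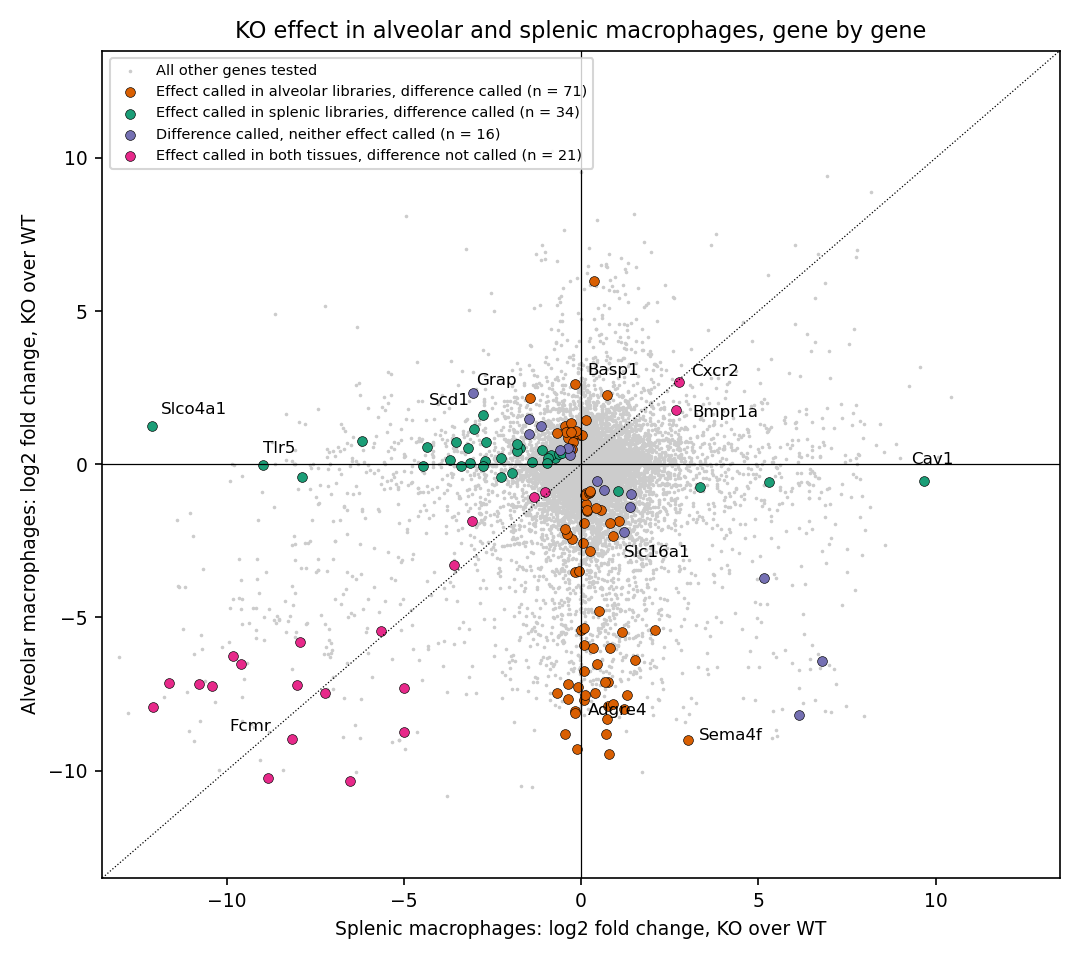
KO effect of each of 20225 genes in splenic macrophages (horizontal, log2 fold change KO over WT) against alveolar macrophages (vertical), with the dotted line where both are equal. The 71 alveolar-class genes lie along the vertical axis, the 34 splenic-class genes along the horizontal axis and the 21 genes called in both tissues near the dotted line. Fitted values beyond about 6 mostly belong to genes with a group at or near 0 counts and depend on the prior count.

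No gene had the difference and both effects called in opposite directions with edgeR. The same 3 conditions at an unadjusted p under 0.05 were met by 195 genes with opposite and 26 with equal directions, and DESeq2 called 29 genes in opposite directions. The KO and WT libraries were fully apart in both tissues and lay in opposite directions in 45 of the 121 genes (37.2%), against 359 of all genes tested (1.78%). The test of the difference selects for this pattern, so the 2 shares are given as a description. Within a single tissue, KO and WT libraries were apart in 18.2% of all genes tested in alveolar and 18.5% in splenic libraries.

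Zeb2 (chr2:44983632-45117395, mm10) itself stood at 297, 282 and 190 CPM in WT alveolar libraries and at 139, 126 and 142 CPM in KO alveolar ones. In splenic macrophages it stood at 330, 296 and 305 CPM in WT and at 322, 320 and 318 CPM in KO. The alveolar groups did not overlap and the KO level was 1.89-fold lower (log2 -0.88 ± 0.15 SE, adjusted p = 0.0241), whereas the splenic groups overlapped (log2 0.08 ± 0.15, adjusted p = 0.924). The difference between the tissues was -0.97 ± 0.22 (95% interval -1.45 to -0.49), with an adjusted p of 0.093 that missed the threshold and ranged from 0.00408 to 0.282 over the alternatives. How much of the gene the allele removes is not stated, so these levels do not check the labels.

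Among the neighbours of Zeb2 on chromosome 2, Arhgap15 (chr2:43748824-44395953), which encodes a Rac GTPase-activating protein, had a called difference. It stood at 24.3, 18.1 and 14.2 CPM in WT alveolar libraries and at 3.75, 3.32 and 4.44 CPM in KO, a 4.92-fold fall (log2 -2.26 ± 0.20, adjusted p = 0.000703). In splenic libraries it stood at 55.9, 54.5 and 52.4 CPM in WT and at 36.5, 42.9 and 41.1 CPM in KO (log2 -0.39 ± 0.19, adjusted p = 0.492). The groups were apart in both tissues, and the difference was -1.87 ± 0.27 (adjusted p = 0.0135). The antisense gene Zeb2os lies within the Zeb2 locus, and the sources used here do not say how reads of overlapping strands were assigned. Its difference was -1.16 ± 0.47 (adjusted p = 0.31), and it stood at 1.31 to 1.73 CPM in WT and 0.377 to 0.835 CPM in KO alveolar libraries. Maf, a macrophage factor that the title of the study connects with Zeb2, had a difference of -1.52 ± 0.73 (adjusted p = 0.393).

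In alveolar macrophages 53 genes fell with a called difference, and 41 of them were higher in WT splenic than in WT alveolar libraries. Among those with more than 3 counts left in KO, the largest fall was in Adgre4 (chr17:55749984-55853662), an adhesion G protein-coupled receptor of the EGF-TM7 family. Adgre4 stood at 9.92, 10.7 and 8.5 CPM in WT alveolar libraries and at 0, 0.0991 and 0 CPM in KO, 294-fold lower (log2 -8.04 ± 0.46, adjusted p = 5.08e-05). In splenic libraries Adgre4 stood at 1120, 1260 and 1160 CPM in WT and at 1100, 1020 and 936 CPM in KO (log2 -0.17 ± 0.25, 95% interval -0.73 to 0.39, adjusted p = 0.897). The difference was -7.87 ± 0.55 (adjusted p = 0.000402), the smallest adjusted p of all genes. Chn2, which encodes the Rac GTPase-activating protein beta-chimaerin, followed the same pattern. It stood at 1.76, 1.32 and 1.37 CPM in WT alveolar libraries and at 0, 0.033 and 0 CPM in KO, against 50.5 to 65.5 CPM in all 6 splenic libraries (difference adjusted p = 0.000454). Because KO alveolar libraries held 1 to 3 counts of Chn2 in all, no fold is given for it.

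Of the 53 alveolar-class genes that fell, 20 had 0 counts in all 3 KO alveolar libraries and another 9 had 1 to 3 counts in all. A count of 0 over the group allows up to 0.0169 CPM, and folds against it are lower bounds that cover counting error only. Mras, a Ras-family GTPase, was at least 84.8-fold lower: it stood at 2.29, 0.693 and 1.31 CPM in WT and at 0 in KO alveolar libraries, against 36.6 to 58.3 CPM in splenic ones (difference adjusted p = 0.00944). Bmp2, a ligand of the BMP family, was at least 23.8-fold lower, from 0.632, 0.297 and 0.277 CPM in WT, against 59.2 to 115 CPM in splenic libraries (adjusted p = 0.0144). Tubb1, the beta-tubulin of platelets, was at least 42.8-fold lower, from 1.21, 0.66 and 0.296 CPM in WT (adjusted p = 0.0122). In splenic libraries Tubb1 stood at 1.96, 2.3 and 1.42 CPM in WT and at 4.18, 2.56 and 2.36 CPM in KO. These splenic groups were apart in the opposite direction (log2 0.72 ± 0.55, adjusted p = 0.745). Slc14a1, a urea transporter that red cells also carry, was at least 60.8-fold lower, from 1.42, 0.495 and 1.16 CPM, against 29.6 to 89.3 CPM in splenic libraries (adjusted p = 0.0122). In these 4 genes every WT alveolar library lay above every KO one, and 18.2% of all genes had alveolar groups apart in either direction. Gfra2, a co-receptor for neurturin that is a red pulp macrophage marker, had 0, 0 and 0.0178 CPM in KO after 0.871, 1.9 and 0.887 CPM in WT, against 298 to 402 CPM in splenic libraries (adjusted p = 0.00301). Hic1, a transcriptional repressor, had 0, 0.0165 and 0 CPM in KO after 3.14, 1.39 and 0.979 CPM in WT (adjusted p = 0.00273). In splenic libraries Hic1 stood at 5.26, 7.93 and 4.67 CPM in WT and at 12.1, 8.23 and 12.1 CPM in KO, apart in the opposite direction (log2 0.89 ± 0.48, adjusted p = 0.564). With voom quality weights per tissue the call was lost for all 6 of these genes, with an adjusted p of 0.0931 for Mras, 0.181 for Bmp2, 0.0667 for Tubb1, 0.188 for Slc14a1, 0.113 for Gfra2 and 0.0528 for Hic1. That for Bmp2 was also lost with a block by replicate number (0.0724) or by number within genotype (0.225) and with all 24 libraries in the fit (0.159).

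Falls from higher alveolar levels included those of Slc16a1, Fyn, Itga4 and Gpd1, given as examples, and the falling genes were not sorted by function. Slc16a1 (chr3:104638668-104658462), the lactate and pyruvate transporter MCT1, stood at 33.7, 31.9 and 22.3 CPM in WT alveolar libraries and at 5.21, 5.17 and 6.61 CPM in KO, 5.17-fold lower (log2 -2.34 ± 0.26, adjusted p = 0.00249). In splenic libraries it stood at 58, 49.7 and 71.5 CPM in WT and at 73, 120 and 132 CPM in KO (log2 0.90 ± 0.24, adjusted p = 0.163). The groups were apart in both tissues and in opposite directions, and the difference was -3.24 ± 0.35 (adjusted p = 0.00288). Fyn, a Src-family tyrosine kinase, stood at 79.1, 71 and 53.1 CPM in WT and at 22.5, 23.5 and 22.2 CPM in KO alveolar libraries, 2.98-fold lower (log2 -1.54 ± 0.17, adjusted p = 0.00249). In splenic libraries Fyn stood at 343 to 474 CPM in WT and 426 to 471 CPM in KO, which overlapped (difference -1.72 ± 0.23, adjusted p = 0.0107). Itga4, the alpha-4 integrin that binds VCAM1, stood at 67.9, 61.7 and 59.7 CPM in WT and at 23.5, 21.6 and 30.2 CPM in KO alveolar libraries, 2.51-fold lower (log2 -1.30 ± 0.14, adjusted p = 0.00249). Its splenic values were 86.6 to 96.2 CPM in WT and 82.7 to 110 CPM in KO and overlapped (difference -1.45 ± 0.20, adjusted p = 0.0111). Gpd1, which feeds glycerol phosphate into triglyceride, was 11.8-fold lower in KO alveolar libraries (28.3, 24.8 and 9.29 CPM in WT, 1.65 to 1.87 CPM in KO), and its difference was called with an adjusted p of 0.0226. That call was lost without WT alveolar replicate 1 or 2, KO alveolar replicate 1 or WT splenic replicate 1 or 2, with an adjusted p of at most 0.0599. It was also lost with voom (0.111) and with a block by replicate number (0.075) or by number within genotype (0.218).

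Monocyte genes were among those that fell in the alveolar libraries. Of 18 monocyte markers tested, 3 fell in KO alveolar libraries and 1 in KO splenic ones, against 0.702% and 0.499% of all genes. The difference was called lower for 2 and higher for 1, against 0.321% and 0.277%. Ms4a6c, a membrane protein of the MS4A family, stood at 13.1, 15.1 and 10.8 CPM in WT and at 3.21, 3.05 and 2.56 CPM in KO alveolar libraries, 4.41-fold lower (log2 -2.11 ± 0.20, adjusted p = 0.000968). In splenic libraries Ms4a6c stood at 40.9 to 55.3 CPM in WT and at 31.8 to 35.2 CPM in KO (log2 -0.46 ± 0.19, adjusted p = 0.39; difference adjusted p = 0.0274). That call was kept only without WT alveolar replicate 3, any 1 KO alveolar replicate or WT splenic replicate 3, and reached 0.0723. It was also lost with voom (0.0671) and with a block by replicate number (0.0769) or by number within genotype (0.218). Vcan, the proteoglycan versican, had 0 counts in all KO alveolar libraries after 3.33, 0.528 and 1.07 CPM in WT, at least 97.4-fold lower, and stood at 0.84 to 3.8 CPM in splenic ones (difference adjusted p = 0.0187, and 0.0519 without WT splenic replicate 2). The summed level of the monocyte list without Chil3 and Treml4, which mark the macrophages themselves, was 2680 to 3610 CPM in WT and 1410 to 2460 CPM in KO alveolar libraries, and 5400 to 5590 CPM in WT and 5940 to 7650 CPM in KO splenic ones. Fn1 alone made up 1030 to 1500 CPM of this sum in WT and 352 to 640 CPM in KO alveolar libraries. It reached at most 57.9 CPM in splenic ones. Ly6c2, Ccr2, Plac8 and F13a1 each stood at no more than 49.7 CPM in any library, so other members made up most of the splenic sums. The part of monocytes in these results was not tested, and in bulk samples fewer cells of a type and less RNA per cell cannot be told apart.

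Of the 18 alveolar-class genes that rose, Basp1 was higher by the largest fold of those above 10 CPM in WT. Basp1 (brain acid-soluble protein, a membrane-associated protein) stood at 12.6, 18.3 and 24 CPM in WT and at 101, 121 and 108 CPM in KO alveolar libraries, 6.01-fold higher (log2 2.63 ± 0.23, adjusted p = 0.000703). Its splenic values were 146, 199 and 149 CPM in WT and 140, 159 and 130 CPM in KO and overlapped (log2 -0.17 ± 0.22, 95% interval -0.65 to 0.31; difference 2.79 ± 0.31, adjusted p = 0.00334). The alveolar group means of Basp1 were 18.3 ± 5.73 CPM in WT and 110 ± 10 CPM in KO (SD, n = 3), beside 165 ± 29.7 CPM in WT spleen. Camkk1, a kinase that activates calcium/calmodulin-dependent kinases, rose from 0 to 0.0512 CPM in WT to 1.28 to 2.97 CPM in KO, and its difference had an adjusted p of 0.0396. That call was kept only without KO alveolar replicate 3, WT splenic replicate 3 or KO splenic replicate 1, and the adjusted p reached 0.113 without others.

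In KO alveolar libraries, 1 of 16 LXR and lipid efflux genes and 1 of 28 lysosome and autophagy genes rose and none fell. Among 17 heme and iron genes 1 rose and 1 fell, and among 19 lipid droplet and triglyceride genes 1 rose and 1 fell, against 0.282% of all genes higher and 0.702% lower. Nr1h3 (chr2:91184061-91202834), which encodes the oxysterol receptor LXR-alpha, stood at 63.9, 56.4 and 61 CPM in WT and at 125, 94.2 and 101 CPM in KO alveolar libraries, 1.77-fold higher (log2 0.87 ± 0.14, adjusted p = 0.0138). In splenic libraries Nr1h3 stood at 569, 543 and 451 CPM in WT and at 400, 338 and 431 CPM in KO (log2 -0.38 ± 0.13, adjusted p = 0.312). The groups were apart in both tissues and in opposite directions, and the difference was 1.25 ± 0.19 (adjusted p = 0.0187, and 0.05 to 0.0566 without WT alveolar replicate 1 or 2 or KO splenic replicate 2). Cd63, a tetraspanin of late endosomes and lysosomes, was 4.68-fold higher (68, 68.6 and 84.3 CPM in WT, 266, 349 and 420 CPM in KO; log2 2.26 ± 0.19, adjusted p = 0.000537). In splenic libraries Cd63 stood at 11.9 to 17.9 CPM in WT and at 19.4 to 25.3 CPM in KO, so that the groups were apart in the same direction (log2 0.74 ± 0.18, adjusted p = 0.128; difference adjusted p = 0.029). Blvrb, which reduces the biliverdin left by heme breakdown, was 1.88-fold higher in KO alveolar libraries (37.3 to 42.8 CPM in WT, 72.4 to 85.5 CPM in KO) and stood at 392 to 485 CPM in all 6 splenic libraries (difference adjusted p = 0.0309). Fcgr2b, the inhibitory Fc gamma receptor, was 1.97-fold higher in KO alveolar libraries (133 to 228 CPM in WT, 289 to 411 CPM in KO) and stood at 23.3 to 28.2 CPM in WT and 13.3 to 18.4 CPM in KO splenic ones (difference adjusted p = 0.029). The call for Cd63 was kept only without WT alveolar replicate 3, KO alveolar replicate 1 or 3 or WT splenic replicate 3 (adjusted p of at most 0.0851), and that for Blvrb only without KO alveolar replicate 3 (at most 0.0938). With a block by number within genotype the adjusted p was 0.143 for Cd63 and 0.216 for Blvrb. The call for Fcgr2b was lost without WT alveolar replicate 1 or 2, WT splenic replicate 1 or 2 or KO splenic replicate 2 or 3 (at most 0.0869).

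**Figure D2:**
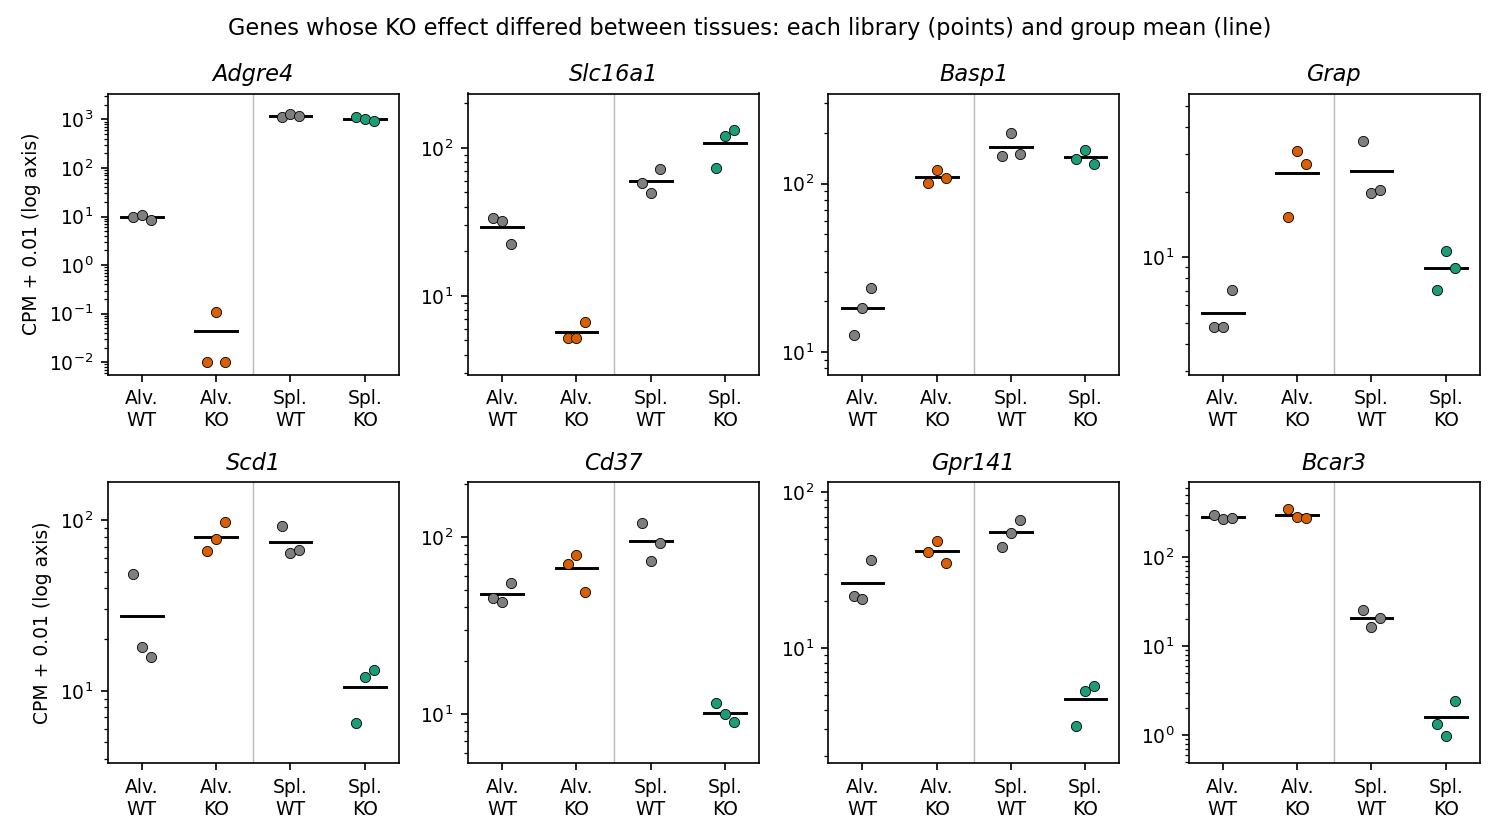
CPM + 0.01 on a log axis in each of the 12 libraries (points; lines are group means of 3) for 8 genes with a called difference. Adgre4, Slc16a1 and Basp1 changed in the alveolar libraries, Cd37, Gpr141 and Bcar3 fell in the splenic libraries, and the groups of Grap lie apart in opposite directions.

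The splenic class was made mostly of genes that fell in KO splenic libraries without a called effect in alveolar ones. Bcar3 (chr3:122294136-122530191), an adaptor that binds the docking protein p130Cas, stood at 25.6, 16.4 and 20.9 CPM in WT and at 1.32, 0.969 and 2.44 CPM in KO splenic libraries, 13.3-fold lower (log2 -3.69 ± 0.28, adjusted p = 0.000316). In alveolar libraries Bcar3 stood at 270 to 299 CPM in WT and at 275 to 346 CPM in KO, which overlapped (log2 0.14 ± 0.24, 95% interval -0.39 to 0.67; difference 3.83 ± 0.36, adjusted p = 0.00129). B3gnt7, a glycosyltransferase that extends keratan sulfate, showed a like fall: 14.4, 12.1 and 15.9 CPM in WT and 1.18, 0.194 and 0.522 CPM in KO splenic libraries, 22.5-fold lower (log2 -4.45 ± 0.42, adjusted p = 0.000909). B3gnt7 stood at 193 to 237 CPM in WT and 174 to 240 CPM in KO alveolar libraries (difference adjusted p = 0.00501). Gpr141, an orphan G protein-coupled receptor, stood at 44.7, 54.5 and 66.8 CPM in WT and at 3.15, 5.23 and 5.63 CPM in KO splenic libraries, 11.8-fold lower (log2 -3.53 ± 0.31, adjusted p = 0.000459). In alveolar libraries Gpr141 overlapped between 20.7 to 36.6 CPM in WT and 35.3 to 48.9 CPM in KO (difference 4.25 ± 0.41, adjusted p = 0.00129).

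Other splenic-class genes were lower in KO splenic libraries. Tlr5, the receptor for flagellin, stood at 1.42, 1.39 and 0.409 CPM in WT and at 0 counts in KO splenic libraries, at least 60.8-fold lower, against 24 to 35 CPM in WT and 23.9 to 34.8 CPM in KO alveolar libraries (difference adjusted p = 0.012). The Tlr5 call was lost with voom (0.0791) and with a block by number within genotype (0.216). Myo1e, a class I myosin, stood at 92, 55.9 and 50.3 CPM in WT and at 7.63, 3.68 and 10.9 CPM in KO splenic libraries, 8.93-fold lower (log2 -3.12 ± 0.34, adjusted p = 0.0027). Its alveolar values were 186 to 228 CPM in WT and 159 to 248 CPM in KO and overlapped (difference 3.15 ± 0.45, adjusted p = 0.0135). Sbk1, a serine/threonine kinase, stood at 28.8, 27.2 and 30.7 CPM in WT and at 7.06, 5.52 and 5.14 CPM in KO splenic libraries, 4.89-fold lower, against 35.3 to 53.2 CPM in all 6 alveolar ones (difference 2.46 ± 0.24, adjusted p = 0.00136). C3, the central component of complement, stood at 245, 167 and 132 CPM in WT and at 49.6, 48.3 and 52 CPM in KO splenic libraries, 3.63-fold lower (log2 -1.81 ± 0.19, adjusted p = 0.00188). In alveolar libraries C3 stood at 294, 336 and 387 CPM in WT and at 553, 525 and 479 CPM in KO (log2 0.66 ± 0.18, adjusted p = 0.138). The groups of C3 were apart in both tissues and in opposite directions (difference 2.47 ± 0.26, adjusted p = 0.0026). Slco4a1, an organic anion transporter, had 0 counts in KO splenic libraries after 19.3, 6.43 and 3.07 CPM in WT, at least 544-fold lower, and its alveolar groups overlapped (0.791 to 3.53 CPM in WT, 1.05 to 6.62 CPM in KO; difference adjusted p = 0.0222). That call was lost without WT alveolar replicate 1 or 2 or KO splenic replicate 2 or 3, with an adjusted p of at most 0.0731. It was also lost with voom (0.152) and with a block by replicate number (0.0967) or by number within genotype (0.216).

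Several genes of the splenic class are also known from B cells. Cd37, a tetraspanin of leukocytes and B cells, stood at 120, 73.1 and 92.2 CPM in WT and at 11.5, 10 and 8.98 CPM in KO splenic libraries, 9.39-fold lower (log2 -3.18 ± 0.23, adjusted p = 0.000301). In alveolar libraries Cd37 stood at 43.1 to 55.2 CPM in WT and at 49.2 to 79.7 CPM in KO, which overlapped (difference 3.71 ± 0.31, adjusted p = 0.00086). Tnfrsf13b, the BAFF and APRIL receptor TACI, stood at 15.8, 14.4 and 13.4 CPM in WT and at 1.03, 1.67 and 1.38 CPM in KO splenic libraries, 10.7-fold lower, against 13.6 to 27.8 CPM in all 6 alveolar ones (difference 3.34 ± 0.37, adjusted p = 0.00301). Cnr2, the cannabinoid receptor of immune cells, stood at 15.4, 10.7 and 10 CPM in WT and at 1.99, 1.76 and 1.38 CPM in KO splenic libraries, 7.02-fold lower, against 91.3 to 121 CPM in all 6 alveolar ones (difference 2.72 ± 0.25, adjusted p = 0.00129). Cd22, an inhibitory Siglec of B cells, was the only B cell marker of 15 with a called difference. It stood at 125, 70.9 and 94.3 CPM in WT and at 21.4, 17.8 and 19.6 CPM in KO splenic libraries, 4.94-fold lower (log2 -2.26 ± 0.19, adjusted p = 0.00041). In alveolar libraries Cd22 stood at 164, 133 and 138 CPM in WT and at 116, 107 and 88.6 CPM in KO (log2 -0.43 ± 0.18, adjusted p = 0.323; difference 1.83 ± 0.26, adjusted p = 0.0132, and 0.0518 without WT alveolar replicate 2). H2-DMb2, which helps load peptides on MHC class II, was 3.99-fold lower in KO splenic libraries (97.4 to 173 CPM in WT, 27.9 to 34 CPM in KO; log2 -1.95 ± 0.23, adjusted p = 0.00374). Its difference had an adjusted p of 0.0485 and was kept only without KO alveolar replicate 2, reaching 0.13.

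The B cell markers without Cd22 summed to 1650 to 2230 CPM in WT and 305 to 391 CPM in KO splenic libraries, and to 88.7 to 180 CPM in WT and 7.95 to 14.7 CPM in KO alveolar ones. Pax5, Fcer2a and Blk were at 0 in the KO alveolar libraries and Pax5 and Vpreb3 in the KO splenic ones. Among the WT splenic libraries, replicate 1 was the highest for 13 of 15 B cell markers (86.7%), for 23 of the 30 splenic-class genes that fell (76.7%) and for 40.3% of all genes tested. The part of B cells in the splenic class was not tested. Without WT splenic replicate 1, the calls of Cd37, Tnfrsf13b, Cnr2 and Cd22 were kept and that of H2-DMb2 was lost. Leaving out this library does not test the part of B cells, because the B cell marker sum was higher in every WT splenic library than in any KO one.

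Among the lipid genes, Scd1 (chr19:44394455-44407879), the delta-9 desaturase that LXR induces, had effects of opposite sign. It stood at 92.2, 64.5 and 67.2 CPM in WT and at 6.46, 12.1 and 13.2 CPM in KO splenic libraries, 7.05-fold lower (log2 -2.77 ± 0.42, adjusted p = 0.0141). In alveolar libraries it stood at 48.2, 18 and 15.8 CPM in WT and at 65.8, 77.4 and 97.5 CPM in KO, 2.94-fold higher, with an adjusted p of 0.102 (log2 1.60 ± 0.40). The groups were apart in both tissues, and the difference was 4.37 ± 0.57 (adjusted p = 0.00947). Of 16 LXR targets and lipid efflux genes tested, Scd1 and Nr1h3 had called differences, both higher in alveolar macrophages, against 0.277% of all genes. The fitted difference was above 0 for 13 of the 16 and for 9652 of all 20225 genes tested, with medians of 0.27 and -0.04.

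Opposite directions were also seen in Grap, an adaptor of the Grb2 family. Grap stood at 4.75, 4.77 and 7.06 CPM in WT and at 15.3, 31 and 26.8 CPM in KO alveolar libraries, 4.41-fold higher (log2 2.18 ± 0.31, adjusted p = 0.0104). In splenic libraries it stood at 34.3, 19.8 and 20.4 CPM in WT and at 7.04, 10.7 and 8.87 CPM in KO, 2.8-fold lower, with an adjusted p of 0.0662 (log2 -1.43 ± 0.30). The difference was 3.61 ± 0.43 (adjusted p = 0.00501), and the WT levels of one tissue lay near the KO levels of the other. Among the 16 genes with neither effect called, 15 had groups apart in both tissues in opposite directions. Epcam (chr17:87635979-87651129), an epithelial adhesion molecule that alveolar macrophages can carry and that ZEB factors are known to repress, stood at 98.8, 54.2 and 109 CPM in WT and at 287, 226 and 187 CPM in KO alveolar libraries. In splenic libraries Epcam stood at 0.754, 1.72 and 1.79 CPM in WT and at 0.724, 0.31 and 0.474 CPM in KO (difference 2.94 ± 0.55, adjusted p = 0.0466). Ifi205, an interferon-inducible gene with close paralogues whose reads the counting could split, went the other way, from 1.5 to 3.58 CPM in WT to 0.672 to 1.25 CPM in KO alveolar libraries and from 4.91 to 7.7 CPM in WT to 16.5 to 17.3 CPM in KO splenic ones (difference -2.75 ± 0.47, adjusted p = 0.0314). Retnla, a marker of alternative activation, stood at 16.8, 6.86 and 10.2 CPM in WT and at 1.2, 0.561 and 0.728 CPM in KO alveolar libraries. In splenic libraries Retnla stood at 0, 0.0183 and 0 CPM in WT and at 0.0181, 0.62 and 0.206 CPM in KO, which overlapped (difference -8.87 ± 1.55, adjusted p = 0.034). The WT splenic libraries held 1 count in all, so the fitted splenic effect (log2 5.17 ± 1.29) and this difference depend on the prior count. The call of Epcam was kept only without KO alveolar replicate 3 or WT splenic replicate 1, that of Ifi205 only without WT alveolar replicate 2, KO alveolar replicate 2 or WT splenic replicate 3, and that of Retnla only without KO splenic replicate 1. Their adjusted p reached 0.118, 0.0775 and 0.0968.

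Without Epcam, the other 13 markers of lung epithelium summed to 259 to 457 CPM in WT and 418 to 527 CPM in KO alveolar libraries, which overlapped. In splenic libraries they summed to 5.53 to 12.4 CPM in WT and 8.41 to 14.2 CPM in KO, with Scgb3a2 and Nkx2-1 at 0 in both groups. Their part in the Epcam values was not tested. Of 20 tested epithelial genes known as targets of ZEB repression, Epcam alone had a called difference, against 0.598% of all genes. The fitted difference was above 0 for 13 of the 20 and for 9652 of all 20225 genes tested, with medians of 1.43 and -0.04.

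Genes that rose in KO splenic macrophages with a called difference were 4, and the 3 beside Cav1 are named after their values were seen. Cav1 (chr6:17306335-17341452), the coat protein of caveolae, had 0 counts in WT and 2.44, 1.32 and 1.31 CPM in KO splenic libraries, at least 94-fold higher. In alveolar libraries Cav1 stood at 94.5, 78.3 and 69.6 CPM in WT and at 53.8, 50.5 and 59.8 CPM in KO (log2 -0.53 ± 0.24, adjusted p = 0.369), and the difference had an adjusted p of 0.00119. Endothelial markers, which mark another cell type rich in caveolae, summed to 415 to 481 CPM in WT and 374 to 513 CPM in KO splenic libraries, of which Pecam1 made up 263 to 395 CPM. None of these 13 markers was called in splenic libraries, with a median log2 effect of 1.19. At an unadjusted p under 0.05, 6 of them were higher and 1 lower, against 5.78% and 5.13% of all genes, and their part in Cav1 was not tested. Lrfn4, a synaptic adhesion molecule, stood at 0.0178 to 0.0359 CPM in WT and at 0.562 to 1.58 CPM in KO splenic libraries (difference adjusted p = 0.0107). Ankrd13b, a ubiquitin-binding protein, stood at 0.124 to 0.347 CPM in WT and at 0.775 to 3.74 CPM in KO splenic libraries (difference adjusted p = 0.0447). Gm8113, a predicted gene, was 1.99-fold higher in KO splenic libraries (16, 11.9 and 20 CPM in WT, 28.8, 30.2 and 36.5 CPM in KO) and stood at 29.1 to 34 CPM in WT and 15.4 to 18.6 CPM in KO alveolar ones (difference -1.90 ± 0.27, adjusted p = 0.0135). In all 4 genes the splenic groups were apart, as they were in either direction in 18.5% of all genes tested.

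**Figure D3:**
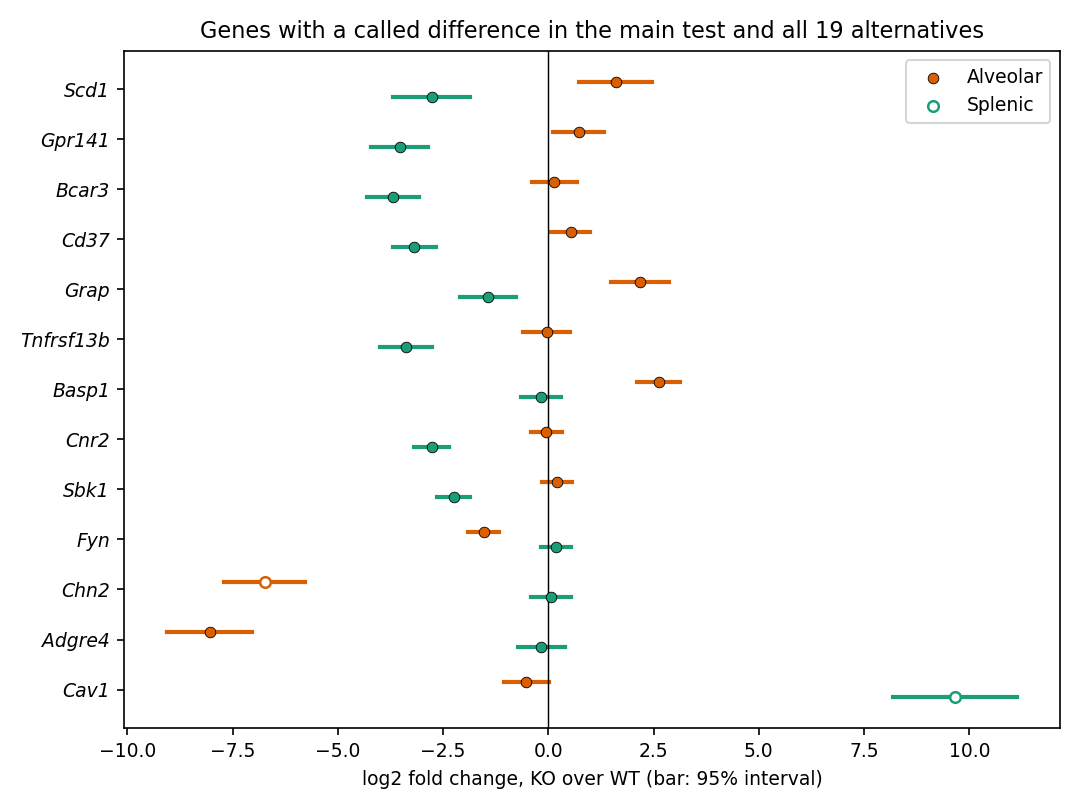
Fitted KO effect (log2 fold change KO over WT) with its 95% interval in alveolar and splenic macrophages for the 13 genes whose difference was called in the main test and in all 19 alternatives. Open symbols (alveolar Chn2, splenic Cav1) mark fits in which a group held 3 counts or fewer and the value depends on the prior count. In none of the 13 genes do both intervals overlap, a pattern for which the test of the difference selects.

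Those 13 genes were Adgre4, Basp1, Bcar3, Cav1, Cd37, Chn2, Cnr2, Fyn, Gpr141, Grap, Sbk1, Scd1 and Tnfrsf13b, of which Basp1, Chn2, Cnr2, Fyn, Sbk1 and Tnfrsf13b lay outside the naming rule and were chosen for this. Without each library in turn, 39 of the 121 calls were kept.

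The alveolar-class genes that fell had a median of 1.48 CPM in WT and 0.011 CPM in KO alveolar libraries, beside 27.9 and 34.1 CPM in WT and KO splenic ones. Of these 53 genes, 41 (77.4%) were higher in WT splenic than in WT alveolar libraries, 20 of them by more than 8-fold, against 45.2% of all genes. That share was 82.9% of the 70 genes that fell in alveolar macrophages without a called difference, 73.1% of the 52 such splenic genes and 94.7% of the 19 that fell in both tissues. The splenic-class genes that fell had a median of 55.0 CPM in WT and 8.31 CPM in KO splenic libraries, beside 90.5 and 95.9 CPM in WT and KO alveolar ones. Of these 30 genes, 20 (66.7%) were higher in WT alveolar libraries, 9 of them by more than 8-fold, against 54.8% of all genes. The higher group mean of the other tissue was under 1 CPM for 3 of the 71 alveolar-class genes and 0 of the 34 splenic-class genes.

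**Figure D4:**
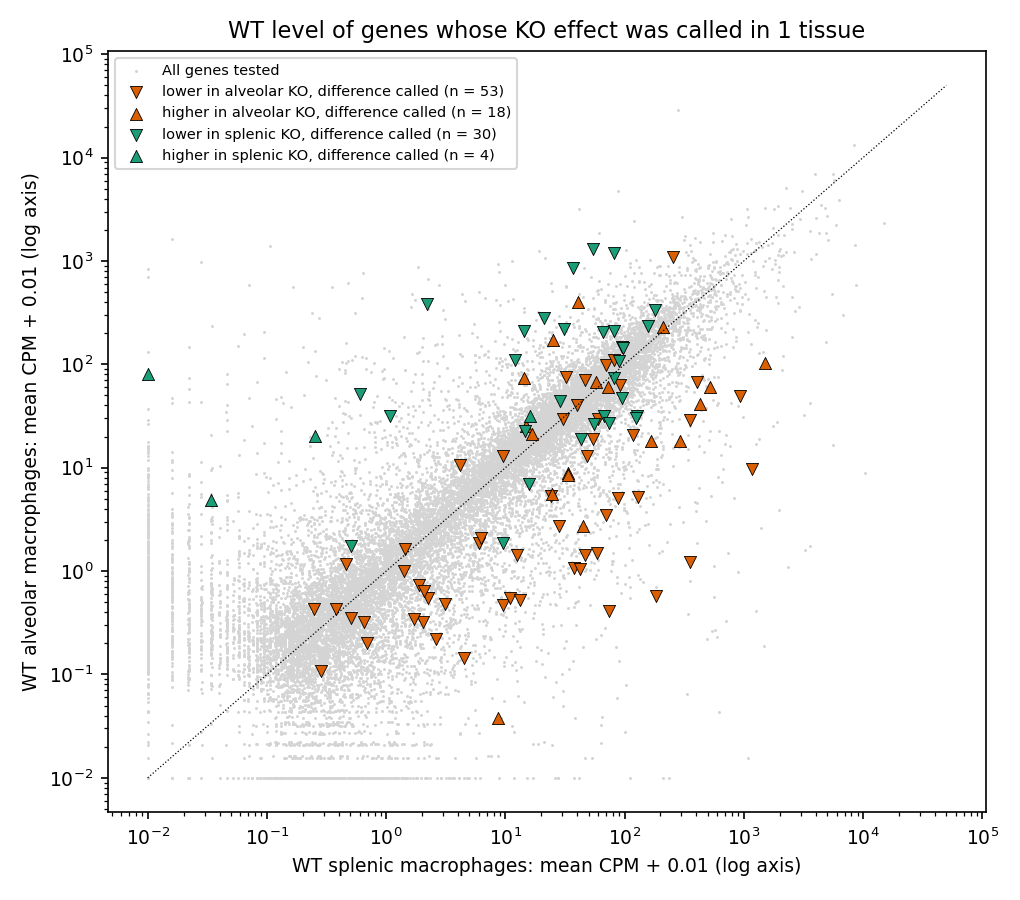
Mean CPM + 0.01 in WT splenic (horizontal) and WT alveolar (vertical) libraries, log axes, for all genes tested (grey) and for the alveolar-class and splenic-class genes, with triangles that point down for genes lower in KO. Of the 53 downward alveolar-class genes 41 lie below the dotted line of equal levels, and of the 30 downward splenic-class genes 20 lie above it.

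The 21 genes that changed in both tissues without a called difference were mostly genes of the B lineage: 9 belong to the B cell list, 8 are immunoglobulin genes and 16 are one or the other. Cd79a, a signalling chain of the B cell receptor, stood at 11.6, 8.44 and 5.17 CPM in WT and at 0, 0.0991 and 0.355 CPM in KO alveolar libraries, 55.6-fold lower (log2 -5.79 ± 0.96, adjusted p = 0.0189). In splenic libraries Cd79a stood at 214, 139 and 142 CPM in WT and at 1.16, 0.794 and 0.0158 CPM in KO, 252-fold lower (log2 -7.94 ± 0.94, adjusted p = 0.00378), and the 95% interval of its difference ran from -0.80 to 5.11. Ms4a1, which encodes CD20, was 44.2-fold lower in KO alveolar libraries (5, 5.79 and 2.01 CPM in WT, 0, 0.165 and 0.124 CPM in KO) and 52.1-fold lower in KO splenic ones (112, 68.4 and 67.3 CPM in WT, 1.36, 2.81 and 0.585 CPM in KO). Its difference was 0.22 ± 1.25 with a 95% interval from -2.54 to 2.97, so unequal effects within that range cannot be told apart. Ighm, the heavy chain of IgM, was 10.2-fold lower in alveolar libraries (125, 50.9 and 51.3 CPM in WT, 6.37, 8.45 and 7.58 CPM in KO) and 12.2-fold lower in splenic ones (666, 530 and 616 CPM in WT, 29.4, 32.4 and 87.1 CPM in KO; difference 0.28 ± 0.58, adjusted p = 0.896). Pax5, the factor that commits cells to the B lineage, had 0 counts in all 6 KO libraries, after 0.854, 0.462 and 0.351 CPM in WT alveolar and 11.3, 6.26 and 9.92 CPM in WT splenic libraries, at least 32.9-fold and 519-fold lower.

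All 9 B cell list members in this group had KO and WT groups apart in both tissues. Over all genes, 1.95% had groups apart in the same direction in both. Of 15 B cell markers tested, 10 fell in alveolar and 12 in splenic libraries, against 0.702% and 0.499% of all genes. Their medians were -5.43 and -6.51 on the log2 scale. Of 150 immunoglobulin genes tested, 8 fell in alveolar and 28 in splenic libraries, against the same shares. None of them rose, and none had a called difference. Their short, near-identical segments make single genes uncertain.

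Of the genes called in both tissues, 5 are neither on the B cell list nor immunoglobulin genes: Bmpr1a, Cd72, Cxcr2, Ifitm3 and Tns1, named after their values were seen. Cxcr2, the neutrophil chemokine receptor, stood at 20.5, 11.9 and 20.9 CPM in WT and at 103, 119 and 107 CPM in KO alveolar libraries, 6.21-fold higher (log2 2.68 ± 0.37, adjusted p = 0.00974). In splenic libraries Cxcr2 stood at 1.15, 0.639 and 0.622 CPM in WT and at 6.12, 7.03 and 2.47 CPM in KO, 6.49-fold higher (log2 2.75 ± 0.40, adjusted p = 0.0121). The groups were apart in both tissues, and the difference was -0.07 ± 0.50 with a 95% interval from -1.18 to 1.03. The 13 neutrophil markers other than Cxcr2 summed to 258 to 431 CPM in WT and 523 to 662 CPM in KO alveolar libraries and to 182 to 257 CPM in WT and 667 to 910 CPM in KO splenic ones. Their part in Cxcr2 was not tested. Of the 14 neutrophil markers, 2 rose in KO alveolar libraries, Cxcr2 and the growth factor receptor Csf3r (117, 90.5 and 158 CPM in WT, 253, 256 and 236 CPM in KO; log2 1.08, adjusted p = 0.0116), and 6 rose in KO splenic ones. At an unadjusted p under 0.05, 6 were higher and 1 lower in KO alveolar libraries, against 5.35% and 8.59% of all genes, and 12 were higher and 0 lower in KO splenic ones, against 5.78% and 5.13%. Over all genes, 0.282% were called higher in KO alveolar and 0.227% in KO splenic libraries. The neutrophil list medians were 1.08 and 2.45 on the log2 scale.

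Bmpr1a, a type I receptor for BMP ligands, rose in both tissues: 7.38, 6.27 and 6.72 CPM in WT and 28.3, 20.9 and 17.3 CPM in KO alveolar libraries, 3.27-fold higher (log2 1.76 ± 0.24, adjusted p = 0.00974). In splenic libraries Bmpr1a stood at 3.03, 3 and 3.77 CPM in WT and at 19.9, 15.9 and 25.9 CPM in KO, 6.27-fold higher (log2 2.68 ± 0.25, adjusted p = 0.000909; difference -0.93 ± 0.34, adjusted p = 0.265). Its groups were apart in both tissues. Ifitm3, an antiviral membrane protein, was 1.94-fold lower in KO alveolar libraries (23.7 to 32.9 CPM in WT, 13.7 to 15.3 CPM in KO) and 2.11-fold lower in KO splenic ones (183 to 210 CPM in WT, 90.7 to 101 CPM in KO). The difference in Ifitm3 was 0.12 ± 0.18, and its 95% interval from -0.27 to 0.51 was the narrowest of these 5. Tns1, the focal adhesion protein tensin, was 2.12-fold lower in alveolar (257 to 356 CPM in WT, 127 to 170 CPM in KO) and 2.59-fold lower in splenic libraries (79.8 to 107 CPM in WT, 28.4 to 45.3 CPM in KO; difference adjusted p = 0.7). Cd72, an inhibitory lectin of B cells and some macrophages, was 3.74-fold lower in alveolar (2.8 to 5.05 CPM in WT, 0.793 to 1.21 CPM in KO) and 8.85-fold lower in splenic libraries (30.9 to 90.8 CPM in WT, 5.41 to 6.77 CPM in KO; difference adjusted p = 0.317).

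**Figure D5:**
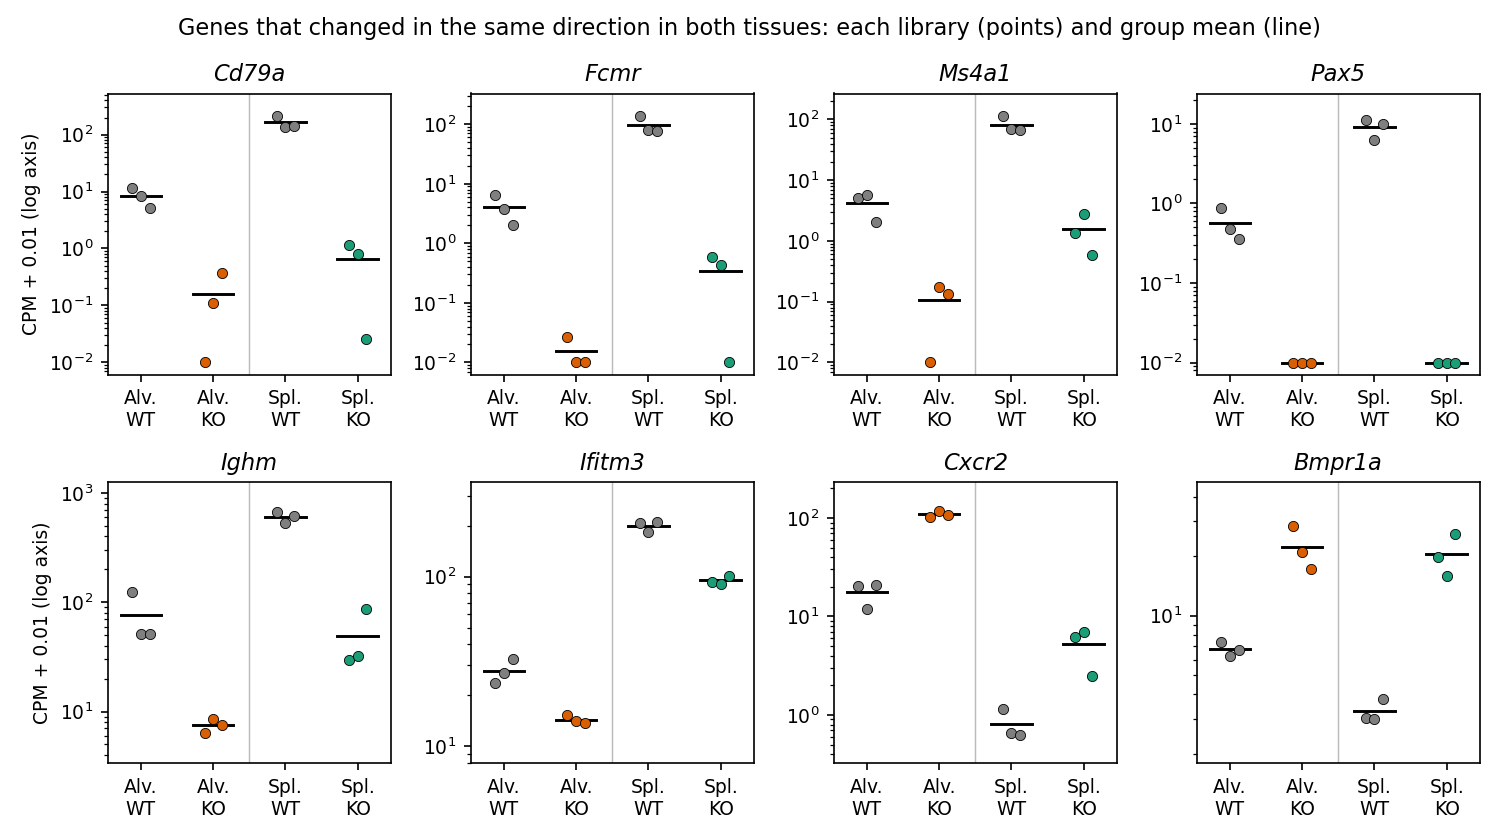
CPM + 0.01 on a log axis in each of the 12 libraries (points; lines are group means of 3) for 8 genes whose KO effect was called in both tissues. Cd79a, Fcmr, Ms4a1, Pax5, Ighm and Ifitm3 were lower in every KO library and Cxcr2 and Bmpr1a higher in every KO library than in any WT library of the same tissue.

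The fitted effect had the same sign in both tissues for 47.6% of all genes. Of the 101 genes that fell in splenic macrophages, 71 (70.3%) had an alveolar effect below 0, 49 of them at an unadjusted p under 0.05. Of the 142 genes that fell in alveolar macrophages, 77 (54.2%) had a splenic effect below 0, 27 of them at an unadjusted p under 0.05. Of the 57 that rose in alveolar macrophages, 26 (45.6%) had a splenic effect above 0, and of the 46 that rose in splenic macrophages, 31 (67.4%) had an alveolar one above 0, with 7 each at an unadjusted p under 0.05. These counts include the 21 genes called in both tissues.

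For 3 lists the fitted differences are given although no member had a called one with edgeR. At an unadjusted p under 0.05 the difference was lower for 7.77% and higher for 5.64% of all genes, and 52.3% of all genes had a fitted difference below 0. Over all 20225 genes, DESeq2 called 545 differences lower and 369 higher, and voom 22 lower and 33 higher. All 22 cell cycle genes had a fitted difference below 0, with a median of -0.90, from medians of 0.20 in alveolar and 1.12 in splenic macrophages. None had a called difference with edgeR, 10 had an unadjusted p under 0.05, DESeq2 called 1 and voom 0, and 2 of the 22 rose in KO splenic macrophages. At an unadjusted p under 0.05, 21 of the 22 were higher in KO splenic and 1 in KO alveolar libraries. In the same splenic libraries 12 of the 14 neutrophil markers and 4 of the 11 erythroid markers tested were higher at that level, against 5.78% of all genes. The part of either cell type in the cell cycle values was not tested. The 24 inflammatory cytokines and chemokines had a median difference of -1.84 (alveolar -1.47, splenic 0.49). None had a called difference with edgeR, 10 were lower and 1 higher at an unadjusted p under 0.05, and DESeq2 called 6 lower and voom 0. The 30 cytosolic ribosomal protein genes all had a fitted difference above 0, with a median of 0.36. None was called by edgeR, DESeq2 or voom, and 7 had an unadjusted p under 0.05.

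Of 23 immediate early and dissociation stress genes, 1 had a called difference, with a list median of -1.03. At an unadjusted p under 0.05, 11 were lower and 0 higher. DESeq2 called 6 lower and voom 1, against 545 and 22 of all 20225 genes. The gene with the called difference was Egr2, a growth-response zinc finger factor. Egr2 stood at 1020, 1420 and 818 CPM in WT and at 423, 363 and 352 CPM in KO alveolar libraries, 2.86-fold lower (log2 -1.49 ± 0.25, adjusted p = 0.019). In splenic libraries Egr2 stood at 182, 305 and 281 CPM in WT and at 363, 351 and 407 CPM in KO (difference adjusted p = 0.029), and the call was lost without WT alveolar replicate 1, KO alveolar replicate 2 or 3 or any 1 KO splenic replicate, with an adjusted p of at most 0.0741. The list summed to 11500 to 31300 CPM in WT and 9930 to 11300 CPM in KO alveolar libraries and to 38100 to 45600 CPM in WT and 50300 to 68100 CPM in KO splenic ones, and the part of tissue digestion was not tested. Of 28 alveolar identity genes none had a called difference, with 5 at an unadjusted p under 0.05. For these DESeq2 called 3 and voom 0, against 914 and 55 of all 20225 genes. Of 20 red pulp identity genes Blvrb was higher and Gfra2 lower. The signs of these list medians were the same under the alternative size factors of RLE and DESeq2.

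Promoter sequence was read for the named genes, because ZEB factors bind the E-box CAGGTG. The motif was searched on both strands, as CAGGTG or its reverse complement CACCTG, in the 250 bases before each RefSeq start (GRCm38.p6). At least 1 match was found for 13 of 43 genes with a higher difference (30.2%), 8 of 50 with a lower difference (16.0%) and 4 of 10 genes called in both tissues (40.0%), against 19% of the tested genes in the table. A match shows the letters and not binding. The 4 windows below belong to genes described above, chosen after their values were seen to show Epcam with its matches and genes of both classes, with matches in capitals.
Epcam (higher difference, chr17:87635729-87635978, plus strand): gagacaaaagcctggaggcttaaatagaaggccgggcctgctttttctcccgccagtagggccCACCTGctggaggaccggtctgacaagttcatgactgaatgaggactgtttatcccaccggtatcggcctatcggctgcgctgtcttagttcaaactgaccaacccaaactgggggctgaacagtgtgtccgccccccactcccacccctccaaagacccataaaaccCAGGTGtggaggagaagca
Nr1h3 (alveolar class, chr2:91195117-91195366, minus strand): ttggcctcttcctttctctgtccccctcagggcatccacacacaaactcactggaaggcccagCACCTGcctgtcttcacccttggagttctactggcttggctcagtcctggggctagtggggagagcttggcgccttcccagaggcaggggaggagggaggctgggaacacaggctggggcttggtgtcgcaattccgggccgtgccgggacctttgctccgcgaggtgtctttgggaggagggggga
Cd37 (splenic class, chr7:45238840-45239089, minus strand): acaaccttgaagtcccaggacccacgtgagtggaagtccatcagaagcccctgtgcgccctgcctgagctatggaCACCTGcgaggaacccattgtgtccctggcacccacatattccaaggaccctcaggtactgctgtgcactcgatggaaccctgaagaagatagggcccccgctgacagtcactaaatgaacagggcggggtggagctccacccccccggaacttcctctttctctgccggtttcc
Bcar3 (splenic class, chr3:122419507-122419756, plus strand): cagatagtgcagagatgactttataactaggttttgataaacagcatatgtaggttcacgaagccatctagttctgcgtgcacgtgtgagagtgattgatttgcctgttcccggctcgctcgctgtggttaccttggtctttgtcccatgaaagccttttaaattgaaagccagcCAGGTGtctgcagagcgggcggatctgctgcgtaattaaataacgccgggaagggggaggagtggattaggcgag

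Epcam held 2 matches in this window and the other 3 genes 1 each. Nr1h3 and Bcar3 each have 2 starts in the table, of which 1 has a match.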

How the data were processed

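Gene counts came from a table of the whole series that the authors deposited, and the whole-number counts are not normalized. The submitters' processing notes name the build mm10 and DRAGEN, STAR, Subread, featureCounts and Salmon without a role, and the strand setting and the handling of shared reads are not stated there. The deposited CPM and TPM columns were not used. The table had 55774 rows, of which 287 identical repeats were dropped to leave 55487 genes. Genes passing filterByExpr (minimum count 10) were fitted in 1 model over the 12 libraries with edgeR 4.0.16 (R 4.3.3, TMM scaling, glmQLFTest, two-sided). Every adjusted p is a Benjamini-Hochberg value over all 20225 genes from this test unless another tool (DESeq2 1.42.0, voom of limma 3.58.1) is named. Called means an adjusted p under 0.05, and SE is the log2 value divided by the square root of F. CPM were recomputed from the counts. The script was tested on simulated counts.

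Named genes were the 12 highest and 12 lowest called differences at 5 CPM or more with groups apart, the 10 strongest genes called in both tissues, 8 splenic-class genes, Zeb2, Zeb2os and Maf, and up to 4 called members per list. Some genes that this rule picks are not reported here. The comparison, its 43 gene lists and this rule were chosen with earlier results of these data known. Every replicate pair differed by more than sampling noise (chi-square per degree of freedom of at least 51.89). Coordinates are 1-based, from GENCODE vM21, in which 55227 of the genes were found. Reads carried no molecular identifiers, so limits from counts cover counting error only.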

Additional observations from a re-analysis of the deposited data

Results flagged for a closer look

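These 42 named genes had a KO effect that differed between alveolar and splenic macrophages by the test of the difference itself, which is why each is listed, with its adjusted p (edgeR) and no explanation. Among genes lower in KO alveolar macrophages they were Adgre4 (0.000402), Hic1 (0.00273), Slc16a1 (0.00288), Gfra2 (0.00301), Mras (0.00944), Itga4 (0.0111), Slc14a1 (0.0122), Tubb1 (0.0122), Art2a (0.0132), Arhgap15 (0.0135), Bmp2 (0.0144), Vcan (0.0187), Gpd1 (0.0226), Bcl11a (0.0274), Ms4a6c (0.0274), Egr2 (0.029), Sphk1 (0.029) and Dapk2 (0.0364). Higher in KO alveolar macrophages were Grap (0.00501), Nr1h3 (0.0187), Cd63 (0.029), Fcgr2b (0.029), Blvrb (0.0309) and Camkk1 (0.0396).

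In the splenic class were Cd37 (0.00086), Cav1 (0.00119), Bcar3 (0.00129), Gpr141 (0.00129), C3 (0.0026), C77080 (0.00334), B3gnt7 (0.00501), Scd1 (0.00947), Trp53i11 (0.0107), Tlr5 (0.012), Cd22 (0.0132), Myo1e (0.0135), Slco4a1 (0.0222), Mcoln3 (0.0274) and H2-DMb2 (0.0485). Ifi205 (0.0314), Retnla (0.034) and Epcam (0.0466) had neither effect called.

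Some calls not described above rested on single libraries. Bcl11a was lost without WT alveolar replicate 1, KO alveolar replicate 1, WT splenic replicate 1 or 2 or KO splenic replicate 1 or 3, with an adjusted p of at most 0.0611. Sphk1 was lost without any 1 KO alveolar replicate, WT splenic replicate 1 or 2 or KO splenic replicate 2 or 3 (at most 0.0746). Mcoln3 was lost without any 1 WT alveolar replicate, WT splenic replicate 1 or KO splenic replicate 3 (at most 0.0657), and Dapk2 was kept only without WT splenic replicate 3 (at most 0.0874). With voom the adjusted p was 0.149 for Bcl11a, 0.247 for Sphk1, 0.0637 for Mcoln3 and 0.235 for Dapk2. A block by number within genotype gave 0.192, 0.152, 0.218 and 0.146 in the same order.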

How the results depend on the processing

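With 3 libraries a group, counts of calls moved more than directions: none of the 121 genes turned the sign of its difference under DESeq2, RLE scaling, the replicate blocks or voom. The DESeq2 Wald test called 914 differences (369 higher, 545 lower), 433 higher and 659 lower alveolar effects, 395 higher and 348 lower splenic effects and 951 mean effects. It placed 449 genes in the alveolar class, 245 in the splenic class, 79 among shared genes, 29 among opposite ones and 5 among those unequal in both. Without a filter on low counts, 104 differences were lower, 90 splenic effects higher and 374 mean effects called, with 55 splenic-class, 36 shared, 3 opposite and 1 unequal gene. With all 24 libraries in the fit, 98 differences and 221 alveolar effects were lower, and 1 gene was opposite and 1 unequal. With voom quality weights per tissue, 55 differences (33 higher, 22 lower), 94 higher and 88 lower alveolar and 123 higher and 234 lower splenic effects were called, with 21 alveolar-class, 9 shared and 3 opposite genes. At other thresholds of level in the other tissue, 1 (0.5 CPM) and 17 (5 CPM) alveolar-class genes and, at 5 CPM, 3 splenic-class genes lay below. The cause of these moves was not tested.

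Leaving out each replicate gave 51 to 142 differences (18 to 50 higher, 30 to 92 lower), 17 to 59 higher and 72 to 198 lower alveolar effects, 17 to 98 higher and 52 to 100 lower splenic effects, and 137 to 261 mean effects. The classes then held 25 to 94 alveolar, 17 to 55 splenic, 10 to 21 shared, 0 to 1 opposite and 0 to 2 unequal genes.

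Same-numbered alveolar and splenic libraries did not deviate together (correlations -0.042 to 0.041). These correlations cannot decide whether same-numbered libraries share a mouse, because cells of different tissues of a mouse need not deviate together. The labels do not state it either, so the pairing remains unknown. A replicate block by number called 56 differences (29 higher, 27 lower), 31 higher and 76 lower alveolar and 25 higher and 53 lower splenic effects and 131 mean effects, with 31 alveolar-class, 21 splenic-class and 11 shared genes. A replicate block by number within genotype called 17 differences (10 higher, 7 lower).

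For named genes, 799 of the values under alternatives stayed on their side of the threshold, 214 lost the call, 2 gained it and 11 turned sign, all in genes called in both tissues with no called difference. The difference became 1.5 for Fcmr, 2.30 for Iglc3 and -0.08 for Ms4a1 with voom. For Iglc3 it became 0.30 with DESeq2, 0.06 with the block within genotype, 0.29 without WT alveolar replicate 2 and 1.37 without KO splenic replicate 3. Leaving out 1 replicate gave -0.79 to 1.37 for Iglc3 and -0.45 to 0.94 for Ms4a1. For Ms4a1 it became -0.13 without WT alveolar replicate 3, -0.45 without KO alveolar replicate 2, -0.04 without WT splenic replicate 1 and -0.20 without KO splenic replicate 3.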
